A study of Mus musculus with 6 samples.

Results

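Genes that restrain signalling through mitogen-activated protein kinases (MAPKs) were examined in CCR6+ group 3 innate lymphoid cells (ILC3s). The set holds 10 genes, 6 MAPK phosphatase genes (Dusp1, Dusp2, Dusp4, Dusp5, Dusp6 and Dusp10) and 4 of the Sprouty and Spred families (Spry1, Spry2, Spred1 and Spred2). These are 10 of 19938 genes tested, chosen by symbol through the platform annotation, and all 10 were measured, on 11 probe sets. The cells were sorted from small intestinal lamina propria of adult C57BL/6 mice, and each sample was run on 1 array. The 3 RANKL-deficient samples carried a Cre transgene that recombines floxed Tnfsf11 (Tnfsf11fl/fl), the gene of the cytokine RANKL. The 3 control samples were Tnfsf11fl/fl, so both groups share the floxed alleles and only the RANKL-deficient group carries Cre. An effect of Cre cannot be told apart from that of the deletion, and this Cre driver is also active in developing T cells. The labels do not say whether samples of a group came from separate or pooled mice, so the p-values rest on a spread between samples that could be technical.

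MAPKs (ERK, JNK and p38) are switched on when an upstream kinase adds phosphate to a threonine and a tyrosine, and the dual specificity phosphatases remove both. Many of these phosphatase genes are themselves switched on by MAPK activity, so that the pathway limits itself. Sprouty and Spred proteins act further upstream and hold back the passage of signals from receptors through Ras to ERK. In lymphocytes such genes are known to respond to antigen receptor, cytokine and stress signals.

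The start-site windows of 3 members are shown as examples of how the members differ in matches to the motifs searched. Dusp6 and Dusp1 had the smallest p-values among the 10, and Dusp5 is an ERK phosphatase gene with closely similar values in both groups. Each window runs from 250 bases before to 50 bases after the annotated start, 5′ to 3′ on the gene's strand, and comes from RefSeq on GRCm38.p6. Windows were found for 9 of the 10 members. Capitals mark matches on either strand to any of 5 motifs, chosen with the values known. They were the cyclic AMP response element TGACGTCA, its half-site TGACG, the AP-1 site TGANTCA, the ETS-type site CCGGAA, and the CArG box. The CArG box is bound by serum response factor. Other forms of the ETS site were not searched.
Dusp6, chr10:99262981-99263280, plus strand: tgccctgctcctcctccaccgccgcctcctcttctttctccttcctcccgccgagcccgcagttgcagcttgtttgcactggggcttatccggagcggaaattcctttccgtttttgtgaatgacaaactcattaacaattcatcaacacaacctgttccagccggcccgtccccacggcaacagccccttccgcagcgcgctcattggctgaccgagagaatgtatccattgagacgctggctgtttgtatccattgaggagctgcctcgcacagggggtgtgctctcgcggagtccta
Dusp1, chr17:26508423-26508722, minus strand: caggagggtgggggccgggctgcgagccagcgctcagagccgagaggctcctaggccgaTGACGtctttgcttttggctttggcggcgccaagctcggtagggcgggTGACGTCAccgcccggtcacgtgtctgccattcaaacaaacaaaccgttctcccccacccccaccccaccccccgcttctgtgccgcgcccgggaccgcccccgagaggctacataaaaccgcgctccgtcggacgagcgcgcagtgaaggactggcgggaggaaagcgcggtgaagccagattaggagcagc
Dusp5, chr19:53528895-53529194, plus strand: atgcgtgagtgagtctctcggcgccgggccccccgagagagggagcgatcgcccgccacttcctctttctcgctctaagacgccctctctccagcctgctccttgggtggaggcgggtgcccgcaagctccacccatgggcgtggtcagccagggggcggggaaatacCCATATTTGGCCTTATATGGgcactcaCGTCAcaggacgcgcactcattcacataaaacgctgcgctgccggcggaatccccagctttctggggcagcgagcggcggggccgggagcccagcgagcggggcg
The Dusp1 window held 1 full cyclic AMP response element, from base -143 to -136 relative to the start, and a further half-site from -191 to -187. The full element contains the half-site on both strands, and 1.79% of all 32851 windows of this length held it, against 20.8% for the half-site. The Dusp5 window held 2 adjacent CArG boxes, from -82 to -73 and from -72 to -63, where 1.63% of all windows held any, and 1 half-site. The Dusp6 window held no match to the motifs as written, and neither did those of Dusp10, Spry1 and Spred1. GGAA outside CCGGAA, as in the Dusp6 window, was not marked, so an ETS site is not excluded there. The Dusp2 and Spred2 windows held 1 half-site each, and the Spry2 window held 1 CCGGAA match, present in 14.9% of all windows. No member window held the AP-1 site, present in 7.81% of all windows. A match is a run of letters, not a measured binding event.

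Control arrays 1 and 2 stood apart from the other 4, with mean correlations across genes of 0.960 and 0.970 against 0.975 to 0.977 for the others. The weights that limma estimates per array ordered them differently, at 1.32 to 1.47 for the RANKL-deficient arrays and at 0.449, 1.43 and 0.604 for control arrays 1, 2 and 3. Control array 3, the one kept when control arrays 1 and 2 are left out, thus had a low weight. Of the genes that define these cells, Ccr6, Il7r and Kit measured 9.28 to 9.55, 12.23 to 12.29 and 10.78 to 10.87 on RANKL-deficient arrays, and 8.59 to 9.80, 12.26 to 12.32 and 10.75 to 10.93 on control arrays. All 14 measured genes of the ILC3 marker list lay above the median gene on every array. Their median difference was 0.17 and 9 of 14 had higher values, with a mean level of 9.92 to 10.04 on RANKL-deficient arrays and 9.66 to 9.93 on control arrays. The groups did not overlap for 4 of them, all higher, where 5.28% of all genes were higher and 9.08% lower in this way. These 4 were led by the chemokine receptor gene Cxcr5 (0.85, unadjusted p = 0.00206), named after its values were seen. The part of this shift in the members' values was not tested. Tnfsf11 had a log2 difference of 0.035 (95% interval -0.37 to 0.44). Its exact two-sided permutation p was 1, where 0.1 is the smallest that 3 arrays against 3 can give. The position of its probe set relative to the floxed exons is not given, so it does not check the labels. Over all genes the median log2 difference was -0.054, and 39.5% of genes had a higher value in RANKL-deficient cells. Among genes with a mean level above the median, the median difference was 0.033, so this baseline depends on expression level. All members but Dusp2 lay above that level. The SD of values over genes was 1.86 and 1.93 on control arrays 1 and 2, against 1.99 to 2.01 on the other arrays.

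Throughout, a difference is RANKL-deficient minus control on the log2 scale, and a gene was called when its limma p-value, adjusted over all genes by Benjamini-Hochberg, was under 0.05. None of the 10 members was called, where the share of all genes called was 0.00502%. At an unadjusted p under 0.05, 3 members were higher in RANKL-deficient cells (Dusp1, Dusp4 and Dusp6), against 4.25% of all genes, and 1 was lower (Spred1), against 3.9%. In either direction, these are 4 of 10 members beside 8.15% of all genes. The groups did not overlap for 2 members, both higher (Dusp1 and Dusp6), where 5.28% of all genes were higher and 9.08% lower in this way. The median difference of the 10 members was 0.45, beside -0.054 for all genes and 0.033 for genes above the median level. When control arrays 1 and 2 were both left out, the members' median was 0.081 and 1 member, Dusp6, had an unadjusted p under 0.05. The plot of each gene on each array shows the values behind these counts.

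**Figure D1:**
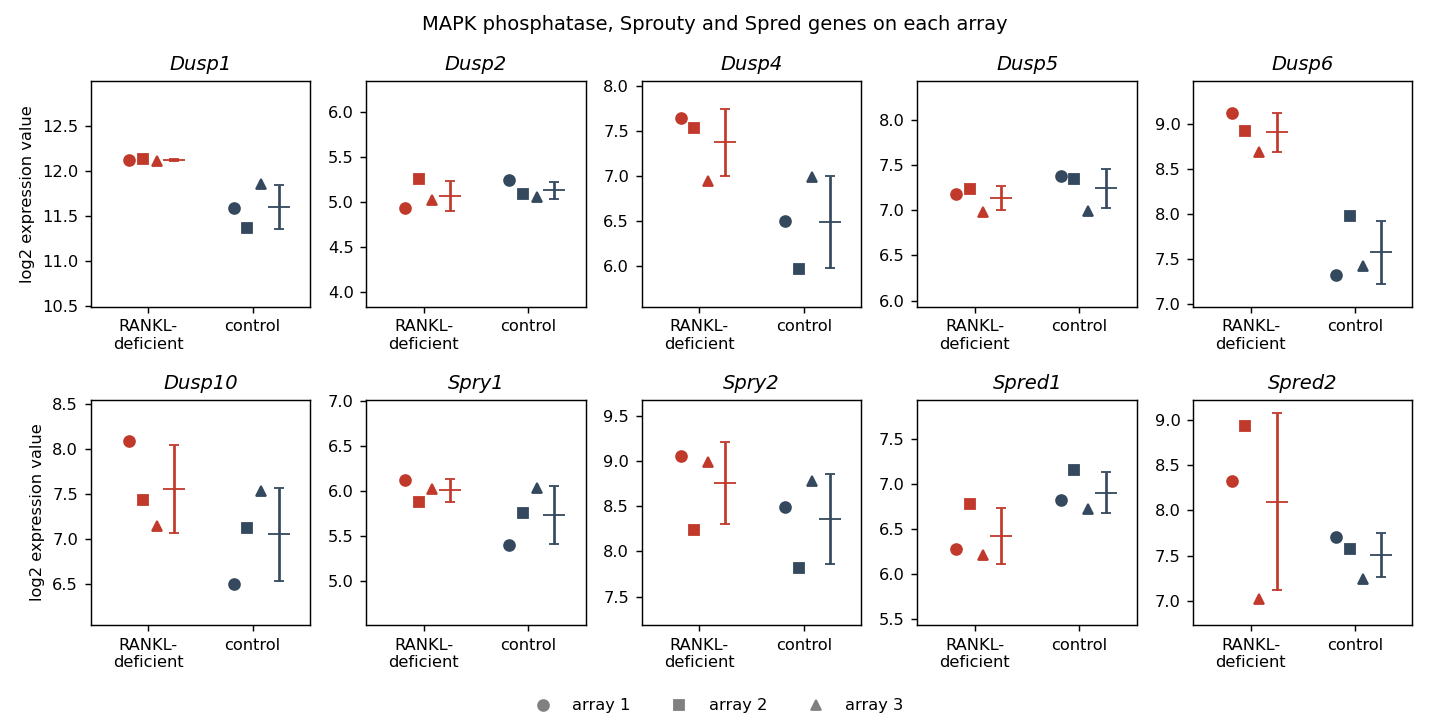
Log2 expression values (vertical axes, each spanning the same range) of the 10 genes on the 3 RANKL-deficient arrays (left, red) and the 3 control arrays (right, blue), with marker shapes for the array number and bars for mean ± SD (n = 3). Dusp1 and Dusp6 are the genes whose groups do not overlap, and the Spred2 values of the RANKL-deficient group spread from 7.02 to 8.94.

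Among the ERK phosphatases, Dusp6 stood highest above its control values. Dusp6 encodes a cytoplasmic phosphatase that is selective for ERK and is itself transcribed in response to ERK. Its log2 values (probe set 10366043) were 9.12, 8.92 and 8.68 on the RANKL-deficient arrays and 7.33, 7.98 and 7.42 on the control arrays. The lowest RANKL-deficient array lay 0.71 above the highest control array, control array 2. The means were 8.91 ± 0.22 in RANKL-deficient cells and 7.58 ± 0.35 in control cells (SD, n = 3 each), a 2.51-fold difference. The log2 difference of 1.33 (SE 0.21, 95% interval 0.84 to 1.82) had an unadjusted p of 0.00037, the 30th smallest of all genes, and an adjusted p of 0.245. Of the 16 alternatives tried, all kept the unadjusted p under 0.05, with differences from 1.18 to 1.53 and adjusted p from 0.206 to 0.702. With control arrays 1 and 2 both left out the difference was 1.48. Control array 3 was then the only control and was assumed to vary like the other group.

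Dusp5, which encodes a nuclear phosphatase also selective for ERK, was close in both groups. It measured 7.18, 7.23 and 6.99 in RANKL-deficient cells and 7.38, 7.35 and 7.00 in control cells. Its groups overlapped, and its log2 difference was -0.11 (95% interval -0.47 to 0.26, adjusted p = 0.853). The interval does not reach that of Dusp6. Within each array, Dusp6 minus Dusp5 was 1.94, 1.68 and 1.70 in RANKL-deficient cells and -0.053, 0.63 and 0.43 in control cells. The groups did not overlap, and an exact two-sided permutation test of this pair, chosen after its values were seen, gave p = 0.1, the smallest possible. Dusp6 alone already separated the groups and Dusp5 hardly differed, so this p adds no support.

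Dusp1, Dusp4 and Dusp2 encode nuclear phosphatases, and the intervals of their differences overlapped. Dusp1, an immediate early gene whose product acts on p38, JNK and ERK, measured 12.12, 12.13 and 12.11 in RANKL-deficient cells. In control cells it measured 11.59, 11.37 and 11.85. The RANKL-deficient arrays lay within 0.015 of each other and above every control array, the nearest being control array 3. The log2 difference was 0.52 (SE 0.15, 95% interval 0.16 to 0.88, unadjusted p = 0.0113, adjusted p = 0.513), a 1.43-fold difference. It was 0.27, with an unadjusted p of 0.122, when control arrays 1 and 2 were both left out.

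Dusp4, whose nuclear product acts on ERK and JNK, measured 7.64, 7.53 and 6.95 in RANKL-deficient cells, against 6.50, 5.97 and 6.99 in control cells. Control array 3 lay just above RANKL-deficient array 3, so the groups overlapped. The log2 difference was 0.89 (SE 0.30, 95% interval 0.19 to 1.58, unadjusted p = 0.0197, adjusted p = 0.563). It was 0.75 and 0.81 when RANKL-deficient array 1 or 2 was left out, 0.63 when control array 2 was, and 0.38 when both control arrays 1 and 2 were, and in these 4 fits its unadjusted p was above 0.05. Dusp2, first described in activated lymphocytes, measured 4.93, 5.25 and 5.02 in RANKL-deficient cells and 5.24, 5.09 and 5.06 in control cells. The values were mixed between the groups, and both group means were close to that of a typical gene (median 5.12). The difference of -0.061 (95% interval -0.38 to 0.26, adjusted p = 0.909) became 0.0038 with cyclic loess scaling.

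Dusp10, whose product prefers p38 and JNK, varied widely within both groups. It measured 8.09, 7.43 and 7.14 in RANKL-deficient cells and 6.50, 7.12 and 7.53 in control cells. The range was 0.95 in RANKL-deficient cells and 1.03 in control cells, both larger than the difference of 0.50 (95% interval -0.27 to 1.27, adjusted p = 0.706). That difference was 0.026 when control arrays 1 and 2 were both left out.

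**Figure D2:**
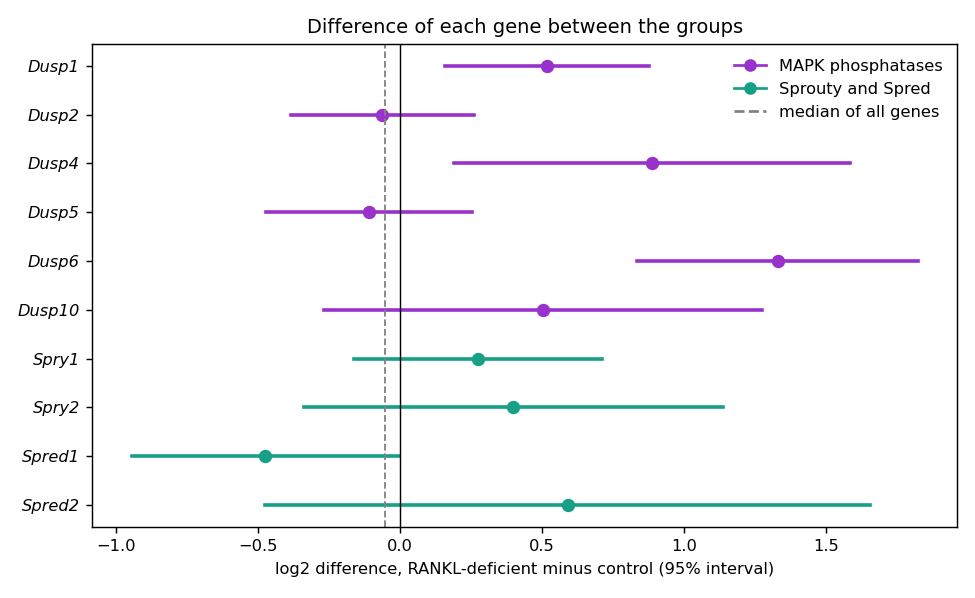
Log2 difference, RANKL-deficient minus control (horizontal axis), of each gene with its 95% interval from limma, for 6 MAPK phosphatase genes and 4 Sprouty and Spred genes. The intervals of Dusp1, Dusp4 and Dusp6 lie above 0, that of Spred1 ends just below 0 (-0.0043), and no difference passed the adjusted threshold.

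Spry1 and Spry2, which encode inhibitors of receptor tyrosine kinase signalling to Ras and ERK, had higher means in RANKL-deficient cells with overlapping groups. Spry1 measured 6.12, 5.87 and 6.02 in RANKL-deficient cells and 5.40, 5.75 and 6.04 in control cells. Spry2 measured 9.06, 8.24 and 8.99 in RANKL-deficient cells and 8.50, 7.81 and 8.78 in control cells. In both genes control array 3 was the highest control and lay among the RANKL-deficient arrays. The differences were 0.28 (95% interval -0.16 to 0.71, adjusted p = 0.711) for Spry1 and 0.40 (95% interval -0.34 to 1.14, adjusted p = 0.740) for Spry2. Both were just below 0, at -0.030 for Spry1 and -0.019 for Spry2, when control arrays 1 and 2 were both left out.

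Spred1 and Spred2 encode membrane-associated proteins that bind neurofibromin, a protein that switches Ras off. Spred1 measured 6.28, 6.78 and 6.22 in RANKL-deficient cells and 6.83, 7.16 and 6.72 in control cells. RANKL-deficient array 2 lay within the control range and the other RANKL-deficient arrays lay below it. The log2 difference was -0.47 (SE 0.20, 95% interval -0.94 to -0.0043, unadjusted p = 0.0484, adjusted p = 0.608). It lay between -0.65 and -0.30 in the 16 alternatives, some of which, such as the replicate block, cannot change a difference. Its unadjusted p was above 0.05 in 9 of these 16, among them the fits that left out RANKL-deficient array 1 or 3, or control array 1 or 2, where the difference lay between -0.51 and -0.35.

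Spred2 was the 1 member with more than 1 probe set, and the 2 disagreed. The probe set with the higher mean (10374455) gave 8.33, 8.94 and 7.02 in RANKL-deficient cells and 7.70, 7.58 and 7.24 in control cells, a difference of 0.59 (95% interval -0.48 to 1.66). RANKL-deficient array 3 was the lowest of all arrays on it, and without that array the difference was 1.13 (unadjusted p = 0.00353, adjusted p = 0.676). Without RANKL-deficient array 2 it was 0.17. The other probe set (10374464) gave 7.68, 6.95 and 7.53 in RANKL-deficient cells and 7.60, 7.40 and 7.41 in control cells, a difference of -0.082. RANKL-deficient array 2, the highest of all arrays on the first probe set, was the lowest of all on the other.

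Across the 6 arrays, Dusp1 and Dusp4 followed each other most closely among the members (Pearson r = 0.93), followed by Dusp10 and Spry1 (r = 0.88). Spry2 and Spred1 ran most opposite (r = -0.92). These are descriptions over 6 arrays that share the sort and the amplification, and they mix the group difference with the difference of control arrays 1 and 2 from the rest. Among genes that are no members, the one most like Dusp6 was Cd244a, a receptor of the SLAM family (r = 0.998), with a difference of 1.35. The one most like Dusp1 was Lpcat4, a lysophospholipid acyltransferase (r = 0.995), with a difference of 0.86, and for Dusp4 it was Exosc2, an RNA exosome subunit (r = 0.987), with a difference of 0.96. The immediate early gene Ier2, chosen after its values were seen, had r = 0.99 with Dusp1. For the other members the closest genes were Ercc1 (Dusp2), Borcs6 (Dusp5), Prkx (Dusp10), Zfp141 (Spry1), Eif4h (Spry2), Ndufaf4 (Spred1) and Rpa3 (Spred2), with r from 0.965 to 0.996. Each was the highest of 4648 candidate genes, so a high r follows from the choice.

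The rest of the pathway was read from lists, and no gene of any list was called. Counts at an unadjusted p under 0.05 stand beside 4.25% of all genes higher and 3.9% lower, and counts of higher values beside 39.5% of all genes. The 39.5% covers genes of all levels, and the share among genes above the median level was not computed. The other MAPK phosphatases (4 measured) had a median difference of 0.017 and none with an unadjusted p under 0.05. The 12 atypical dual specificity phosphatases, which mostly have other substrates, had a median of 0.0075 and a range from -0.35 to 0.40. None of them had an unadjusted p under 0.05, and the smallest was that of Dusp11, an RNA phosphatase, with a difference of -0.35. The 3 other Sprouty and Spred genes had a median of -0.12. Spry4 had a difference of 0.34 (unadjusted p = 0.0926) and Spred3 one of -0.12, and Spry3, whose groups did not overlap, one of -0.22 (unadjusted p = 0.139).

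Transcripts known to depend on ERK were divided. Of 12 measured, 3 had an unadjusted p under 0.05, all higher (4.25% of all genes). The median of the list was -0.0061 and 5 of 12 had higher values, near the share of all genes. Etv5, an ETS factor that ERK signalling switches on in many tissues, measured 8.62, 9.81 and 8.85 in RANKL-deficient cells and 7.69, 7.07 and 7.09 in control cells. All RANKL-deficient arrays lay above all control arrays, and the difference was 1.81 (SE 0.33, adjusted p = 0.306). With the mean of all its probe sets it was 1.27. Fos, a subunit of AP-1, had a difference of 0.52 (SE 0.12, adjusted p = 0.423), and Myc, a growth regulator, one of 0.87 (SE 0.31, adjusted p = 0.582). When control arrays 1 and 2 were both left out, the differences of Etv5, Fos and Myc were 2.00, 0.48 and 0.99. Fos followed Dusp6 with r = 0.95 across the 6 arrays, Myc with r = 0.87 and Etv5 with r = 0.81. These genes and Dusp6 were all higher in RANKL-deficient cells, so each r includes the group difference. The remaining 9 genes of this list lay between -0.24 and 0.34.

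Among the kinases, lower values stood beside higher ones. Of 8 MAP kinase genes measured, 2 had an unadjusted p under 0.05, both lower (3.9% of all genes), and the median was -0.20. Mapk10, which encodes a JNK best known from neurons, averaged 7.17 ± 0.75 in RANKL-deficient cells and 8.81 ± 0.17 in control cells (SD, n = 3 each). The groups did not overlap, and the difference was -1.64 (SE 0.35, adjusted p = 0.394), or -1.03 with the mean of all its probe sets. Mapk13, a p38 kinase, had a difference of -0.42 and Mapk9, a JNK, one of -0.65, with unadjusted p of 0.0270 and 0.0883. The Mapk9 difference was -0.99 without control array 1 and -0.29 without control array 2.

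Of 6 MAP kinase kinases, 1 had an unadjusted p under 0.05, higher (4.25% of all genes). Map2k3, an activator of p38, measured 7.83, 7.30 and 7.05 in RANKL-deficient cells and 6.38, 6.15 and 6.84 in control cells, a difference of 0.93 (SE 0.26, adjusted p = 0.461). Its groups did not overlap, but with control arrays 1 and 2 both left out the difference was 0.55 with an unadjusted p of 0.159. Map2k4, an activator of JNK, and Map2k5 had differences of 0.53 and -0.52. Without RANKL-deficient array 3 these were 0.35 and -0.29, and with control arrays 1 and 2 both left out that of Map2k4 was 0.12. In the Ras and Raf module, 2 of 16 measured genes had an unadjusted p under 0.05, both lower (3.9% of all genes). These were the docking adaptor Gab2 and the Raf scaffold Ksr1, each with a difference of -0.37, followed by the Ras activator Rasgrp1 at -0.34 (unadjusted p = 0.0564). The unadjusted p of Myc, Mapk13, Gab2 and Ksr1 was above 0.05 in at least 1 of the fits that left out 1 array.

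**Figure D3:**
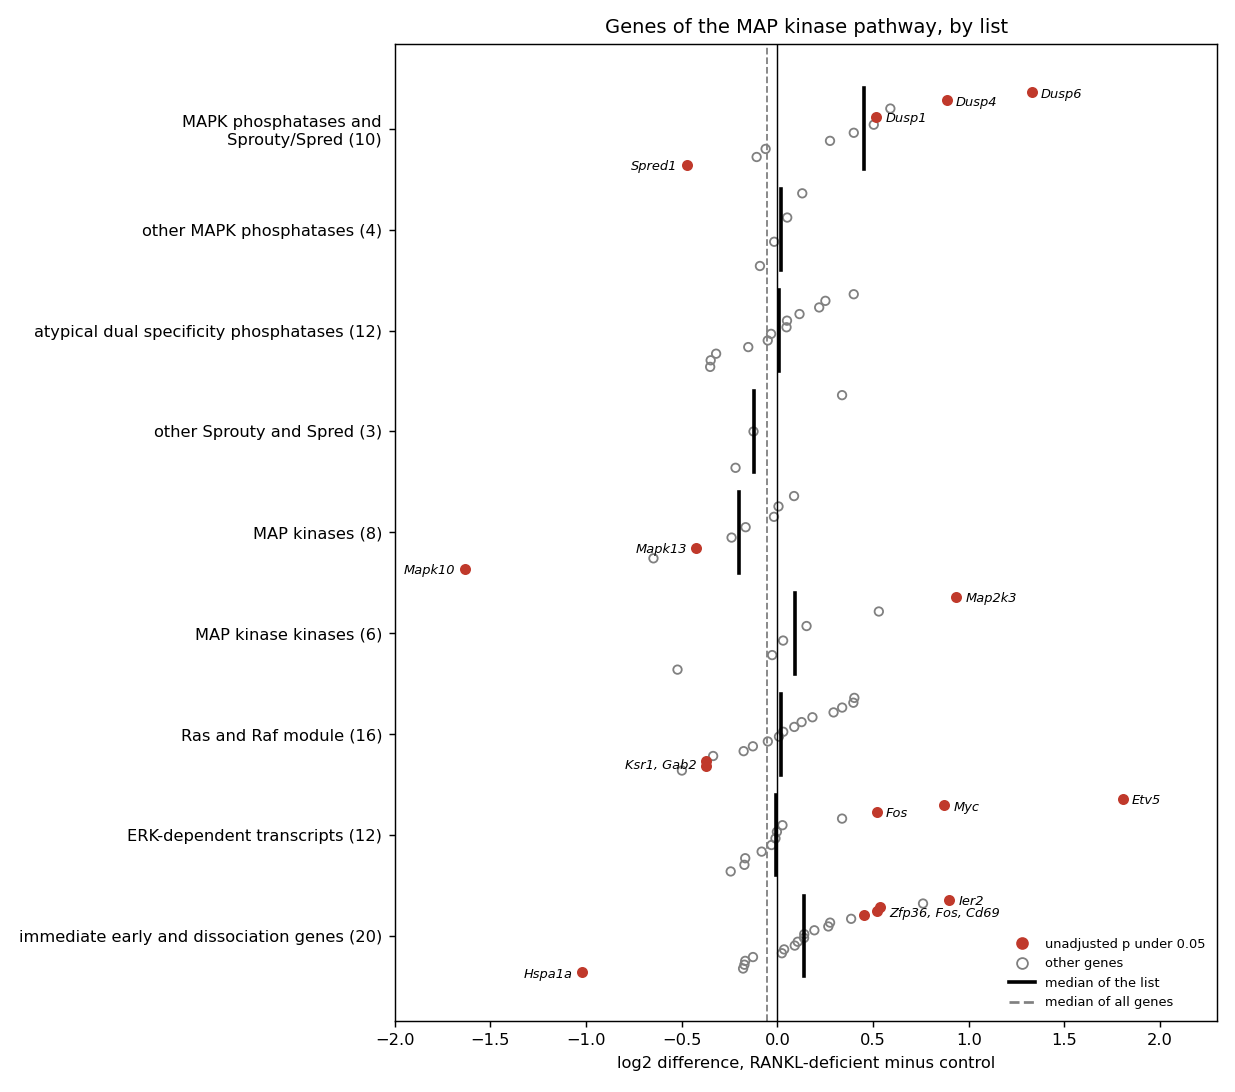
Log2 difference, RANKL-deficient minus control (horizontal axis), of each gene of the MAP kinase lists (rows, with the number of genes measured), with filled points for an unadjusted p under 0.05, a black bar for the list's median and a dashed line for the median of all genes (-0.054). Dusp6 and Etv5 lie farthest to the right at 1.33 and 1.81, and Mapk10 farthest to the left at -1.64.

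Dusp1 belongs to the genes that respond within minutes to stimulation and to tissue digestion, and the cells had been released with collagenase. Of 20 such genes measured, not counting Dusp1, 15 had higher values and 5 lower ones, with a median of 0.14. At an unadjusted p under 0.05, 4 were higher (4.25% of all genes) and 1 lower (3.9%). The list's mean level was 9.87 to 9.96 on RANKL-deficient arrays and 9.61 to 9.92 on control arrays. The 4 higher genes were Ier2 (0.90), Cd69, an activation marker (0.54), Fos (0.52) and Zfp36 (0.45). The 1 lower gene was Hspa1a, a heat shock gene with a near-identical copy, at -1.02. The median of the list was 0.056 with quantile and 0.042 with cyclic loess scaling, and 0.0043 when control arrays 1 and 2 were both left out. The part of the digestion response in the Dusp1 difference was not tested.

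Markers of other cells that the sort could hold were read beside these results. Stromal, endothelial and glial markers had lower values in 12 of 13 genes, with a mean level of 5.48 to 5.59 on RANKL-deficient arrays and 5.70 to 6.05 on control arrays. Of these, 8 of 13 lay above the median gene on every array. T cell markers had lower values in 6 of 9 genes, close to the share of all genes, and 3 of 9 lay above the median gene on every array, with a mean level of 5.65 to 5.91 on RANKL-deficient arrays and 5.74 to 6.01 on control arrays. They went both ways, with Cd3g at -1.91 (unadjusted p = 0.00276), Cd4 at 0.69 (unadjusted p = 0.0146) and Lat at 0.51 (unadjusted p = 0.0170). The groups did not overlap for any of these 3. Cd4 and Lat averaged 9.32 and 9.70 in RANKL-deficient cells and 8.63 and 9.19 in control cells. Cd3g averaged 4.78 and 6.69. Whether the Cd4 and Lat values came from T cells or from the sorted ILC3s themselves was not tested. Macrophage, monocyte and dendritic cell markers had a mean level of 4.80 to 5.29 on RANKL-deficient arrays and 5.14 to 5.21 on control arrays, with 7 of 13 lower and 4 of 13 above the median gene throughout. Epithelial markers had lower values in 10 of 12 genes, at a mean level of 4.86 to 5.41 on RANKL-deficient arrays and 5.20 to 5.48 on control arrays. Granulocyte and mast cell markers had lower values in 9 of 9, at 3.47 to 3.59 on RANKL-deficient arrays and 3.59 to 3.76 on control arrays. B and plasma cell, NK cell and ILC1, and ILC2 markers had median differences of -0.096, -0.10 and -0.13. Among the NK cell and ILC1 markers, Klrk1 was at 1.20 (unadjusted p = 0.00045) and Ncr1 at -0.93 (unadjusted p = 0.0349), both with groups that did not overlap. These T and NK cell markers were named after their values were seen. Arrays have no true 0, so no marker could be called absent, and fewer cells of a type cannot be told apart from less RNA per cell. The part of other cells in the lower Spred1 values, or in any other member, was not tested.

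**Figure D4:**
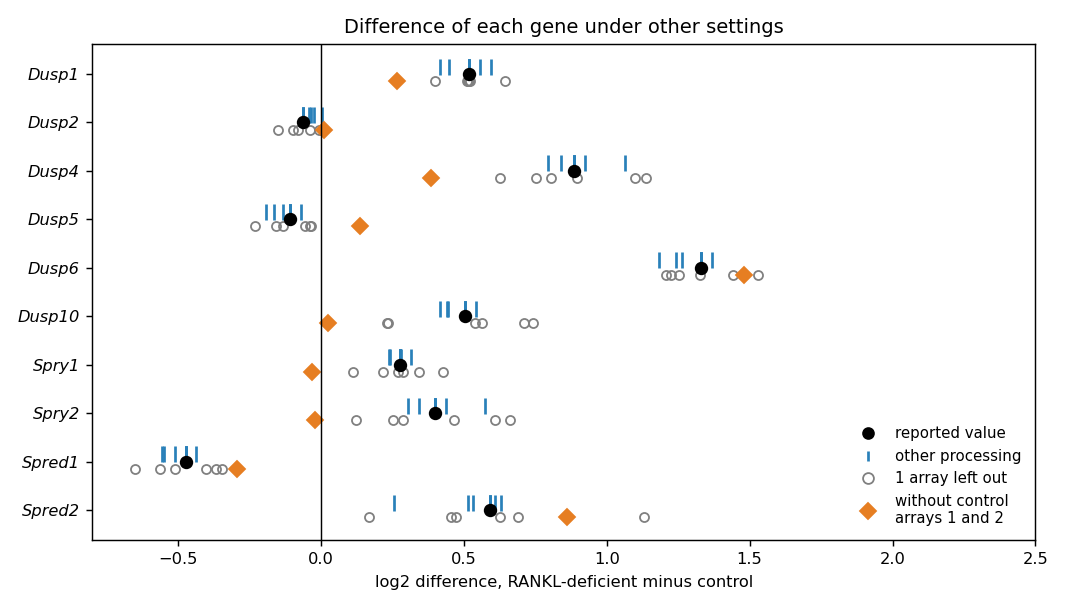
Log2 difference, RANKL-deficient minus control (horizontal axis), of each gene as reported (black), under other processing (blue ticks), with 1 array left out (open grey circles) and without control arrays 1 and 2 together (orange). Dusp6 stays between 1.18 and 1.53, whereas Dusp1, Dusp4 and Dusp10 have their lowest value without control arrays 1 and 2.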

How the data were processed

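The authors deposited log2 expression values of 35556 probe sets on 6 arrays. Per the submitters' processing notes, these were summarised with RMA using the Affymetrix program Expression Console. Its version, settings and annotation were not among the details given in the sources used here. RNA (2 ng in each sample) was amplified with a NuGEN kit, per the labels' protocols, which can widen the scatter of weak genes. RMA scales the arrays to one another, so a shift of all genes could be hidden. The number of arrays limits the precision.

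Probe sets with 1 gene symbol (21789) were kept, with the symbol brought up to date through its Entrez identifier in RefSeq (GRCm38.p6). Of a gene's probe sets, the one with the highest mean stood for it, and weak genes were not filtered out. The 19938 genes were fitted together in R 4.3.3 by limma 3.58.1 (functions lmFit and eBayes, two-sided, Benjamini-Hochberg over all genes, no block). The procedure was also run on simulated data with independent noise. That run was required only to return planted changes on average, so it gives no error rate for these arrays. Some pathway genes are not analysed here.

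The members and lists were chosen with earlier results of these data known. All members were named, and of each other pathway list at most the 3 genes with the smallest unadjusted p. Ccr6, Il7r and Kit were named as identity genes. Ier2, Zfp36, Cxcr5, Cd3g, Cd4, Lat, Klrk1 and Ncr1 fall outside this rule or were picked for their values. For each member, the most correlated gene was also named, among genes with a mean above the median and an SD of at least 0.3. The alternatives were quantile, median and cyclic loess scaling, a filter on low values, other uses of probe sets, other eBayes options, array weights, a replicate block and leaving out arrays.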

Additional observations from a re-analysis of the deposited data

How the results depend on the processing

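Of 159 recomputed member differences, 136 kept their direction and their side of an unadjusted p of 0.05. Part of this was fixed by the settings. The filter on low values, the fit of every probe set, the other eBayes options and the replicate block can change a p but not a difference. The mean of all probe sets could change only the difference of Spred2. Of the 159 differences, 6 turned sign. Dusp2 did so at 0.0038 with cyclic loess, at 0.011 without control arrays 1 and 2 together, and at 0.0077 without RANKL-deficient array 1, in a range of -0.15 to 0.0077 with 1 array left out. Without control arrays 1 and 2 together, Dusp5 was at 0.14, Spry1 at -0.030 and Spry2 at -0.019, the members' median was 0.081, 1 member had an unadjusted p under 0.05 and 0 genes were called. With 1 array left out, 2 to 5 members had an unadjusted p under 0.05, the lowest count being reached without control array 2 and without RANKL-deficient array 1. The members' median then ranged from 0.24 (without RANKL-deficient array 1) to 0.53, and 0 to 1 genes were called. Over all genes, 1 gene was called (Ccr2), against 0 with every probe set tested, 0 with the replicate block and 2 with the trend and robust options. With the replicate block, 5 members had an unadjusted p under 0.05, Spry2 being added at 0.0396, and Dusp6 had 0.00106. Same-numbered samples did not deviate together (correlations across genes -0.023, 0.050 and 0.027), so the numbers were not taken as pairs. Only RANKL-deficient arrays 2 and 3 correlated best with the control array of their own number, as a hint from the data. The cause of these shifts was not tested. With the filter on low values Dusp2 had no value, and the likeness between genes was not recomputed. With 3 arrays a group and no background level, small differences of weakly expressed genes such as Dusp2 could not be resolved.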
